A study of Mus musculus with 131 samples.

Results

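The 9 genes Cyp2c29, Cyp2c37, Cyp2c38, Cyp2c39, Cyp2c40, Cyp2c50, Cyp2c54, Cyp2c55 and Cyp2c70 were taken by name from the 24397 genes of the deposited expression table. The names were proposed with results of these libraries known. The rule does not state which values were used, so the differences between animals deleted for Tet2 and Tet3 at 1 day and their controls are given as a description, with no test. All 9 passed the filter on low values. The 9 genes lie on chromosome 19 between 39081508 and 40261776 (mm9, GENCODE vM1 gene models), where Cyp2c55, Cyp2c29, Cyp2c39, Cyp2c37 and Cyp2c50 are on the plus strand and Cyp2c38, Cyp2c40, Cyp2c54 and Cyp2c70 on the minus strand.

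Cyp2c genes encode cytochrome P450 monooxygenases of the endoplasmic reticulum, which take electrons from the reductase Por and oxidise drugs, steroids and fatty acids. Several mouse Cyp2c enzymes, Cyp2c29 among them, convert arachidonic acid to epoxides or hydroxy acids, whereas Cyp2c70 hydroxylates bile acids and yields the muricholic acids of rodents. In liver the family is expressed by hepatocytes, in part under the nuclear receptors CAR (Nr1i3) and PXR and, for several members, under the sex-dependent secretion of growth hormone.

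The study asked how DNA methylation lost in hepatocytes after birth bears on their maturation. All mice were C57Bl. RNA-Seq libraries of hepatocytes came from uninjected WT mice of 1 week (1 library), 3 weeks (3) and 15 weeks (3), and from 15 week mice that had received AAV8 carrying Cre under the hepatocyte promoter Tbg, either at 1 day (3 controls labelled WT, 3 DKO) or at 3 weeks (3 controls labelled WT, 2 DKO). DKO mice descended from Tet2 F/Tet3 F mice, in which Cre removes both genes of TET dioxygenases, the enzymes that oxidise 5-methylcytosine. All injected groups, controls included, thus received the vector, and deletion was limited to cells in which Tbg drives Cre. Hepatocytes were purified on a Percoll gradient and sorted by size and as CD45-negative cells. WGBS was made of 1 library each of newborn WT (labelled 1 week), 15 week WT and 15 week DKO hepatocytes (injected at 1 day), H3K27ac and H3K4me1 ChIP-Seq of 1 library each of 15 week WT and DKO hepatocytes (injected at 1 day), ATAC-Seq and HNF6 ChIP-Seq of 2 WT and 2 DKO samples that the labels call liver with no age, and 5hMeDIP-Seq of 1 hepatocyte library, at an age of 20 days according to the methods. For ATAC-Seq the study itself names adult hepatocytes of 15 weeks, with deletion at 1 day. The WT libraries of WGBS and of both histone marks came from uninjected mice by their labels, so deletion and injection cannot be told apart in WGBS and histone marks. RRBS columns were used of hepatocytes from WT mice of 3 weeks (2), of 15 week controls and DKO injected at 1 day (3 and 2) or at 3 weeks (3 and 2), and of InsR KO mice (2), made from InsR F mice with the same vector right after birth and taken as adults of 15 to 20 weeks. Single columns of fat from a 25 week and of neutrophils from a 36 week WT mouse were also read.

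Hepatocyte markers were abundant in all 18 RNA-Seq libraries, with a summed level of 8 genes between 18132 and 34580 FPKM, although Alb was listed at 0 in each of them, which can be a failed estimate. The libraries stood apart in 3 ways. The 1 week library held 1791 FPKM of 6 erythroid markers, against at most 70.6 in the other libraries, and also more of the cholangiocyte (121) and leukocyte (46.6) markers. Xist was between 48.0 and 77.1 FPKM in the 3 week WT libraries, which had at most 0.00764 FPKM of the Y-linked Ddx3y, whereas the 15 week WT libraries were the reverse. One control injected at 3 weeks, library C, had an Xist level of 88.1 FPKM and Ddx3y listed at 0, unlike libraries A and B of its group. Differences between 3 and 15 weeks therefore cannot be told apart from those between libraries with Xist and libraries with Y transcripts.

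The targeted genes were measured over their whole length. With injection at 1 day, Tet2 was at 2.13, 1.63 and 0.890 FPKM in controls and 4.08, 2.82 and 3.16 in DKO. Tet3 was at 2.11, 2.55 and 1.68 FPKM in controls and 2.78, 1.74 and 2.65 in DKO. With injection at 3 weeks, Tet2 was at 2.56, 2.08 and 2.99 FPKM in controls and 1.84 and 0.824 in DKO, and Tet3 at 2.55, 2.89 and 2.44 in controls and 1.67 and 1.56 in DKO. Both genes were thus below every control library in DKO injected at 3 weeks, but Tet2 was above every control library in DKO injected at 1 day. A value over the whole gene does not measure the deleted part alone, so it does not check the labels.

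Methylation at the starts of these genes is shown first by the sequences that carry it. A tile, a window of 200 bp, was counted as lost where the WGBS methylation level was at least 35 percentage points lower in adult than in newborn WT, and as kept in DKO where the DKO level was at least 35 points above the adult. The 2 Cyp2c40 tiles lie under an ATAC-Seq peak of WT liver. The others are, for the 4 genes with the largest differences in transcript level and for Cyp2c70, the tile with the largest fall within 1 kb of the start, a choice made after their values were seen. Only tiles that were lost and kept in DKO could be printed. All are printed on the plus strand of mm9, with CpG sites, which carry the methylation measured, in capitals.
Cyp2c29, chr19:39361601-39361800: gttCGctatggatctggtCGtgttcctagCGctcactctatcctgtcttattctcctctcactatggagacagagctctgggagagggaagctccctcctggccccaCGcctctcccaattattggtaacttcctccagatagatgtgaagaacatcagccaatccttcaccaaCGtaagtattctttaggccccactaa
Cyp2c37, chr19:40067401-40067600: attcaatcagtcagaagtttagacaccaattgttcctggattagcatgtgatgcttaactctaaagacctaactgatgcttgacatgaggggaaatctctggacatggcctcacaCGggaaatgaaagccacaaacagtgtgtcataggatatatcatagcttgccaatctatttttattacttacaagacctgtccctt
Cyp2c50, chr19:40163201-40163400: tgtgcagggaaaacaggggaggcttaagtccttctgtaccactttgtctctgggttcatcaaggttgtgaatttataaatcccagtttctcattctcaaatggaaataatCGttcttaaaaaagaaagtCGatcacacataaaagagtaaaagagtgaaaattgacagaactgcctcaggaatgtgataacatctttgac
Cyp2c54, chr19:40148001-40148200: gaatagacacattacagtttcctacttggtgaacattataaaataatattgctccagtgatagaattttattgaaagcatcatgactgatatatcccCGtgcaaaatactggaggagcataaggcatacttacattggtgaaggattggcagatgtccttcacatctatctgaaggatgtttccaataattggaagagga
Cyp2c70, chr19:40261001-40261200: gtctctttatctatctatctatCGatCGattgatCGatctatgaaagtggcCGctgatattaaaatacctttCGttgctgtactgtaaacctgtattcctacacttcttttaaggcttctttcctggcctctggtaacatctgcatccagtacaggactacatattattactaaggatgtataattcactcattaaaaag
Cyp2c40, chr19:39886001-39886200: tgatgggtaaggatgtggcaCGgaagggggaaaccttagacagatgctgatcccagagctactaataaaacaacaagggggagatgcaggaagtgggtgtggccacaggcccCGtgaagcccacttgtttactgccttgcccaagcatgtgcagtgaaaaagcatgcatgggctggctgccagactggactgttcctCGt
Cyp2c40, chr19:39886201-39886400: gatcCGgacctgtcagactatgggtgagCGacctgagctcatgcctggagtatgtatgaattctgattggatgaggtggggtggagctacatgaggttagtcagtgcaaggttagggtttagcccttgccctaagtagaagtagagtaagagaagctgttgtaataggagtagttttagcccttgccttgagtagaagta

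The Cyp2c29 tile overlaps an exon, 126 bp past the start, with 5 CpG sites, and its methylation level was 95.8% in newborn WT, 10.0% in adult WT and 85.4% in adult DKO. The Cyp2c37 tile, in intron sequence 588 bp past the start, holds 1 CpG site and went from 60.7% to 0%, against 53.8% in DKO. The Cyp2c50 tile lies 868 bp before the start, with 2 CpG sites, at 79.5%, 10.5% and 65.8% in the same order. The Cyp2c54 tile overlaps an exon, 202 bp past the start, with 1 CpG site, at 70.6%, 22.2% and 62.5%. The Cyp2c70 tile, intronic and 676 bp past the start, has 5 CpG sites and was at 76.6%, 1.27% and 71.9%. The Cyp2c40 tiles, intronic and 1204 and 1004 bp past the start, were at 74.2%, 27.4% and 80.9%, and at 61.4%, 6.98% and 89.6%. In each of the 7 tiles the DKO value was nearer to the newborn than to the adult WT value. Because a tile had to be kept in DKO to be printed, this follows largely from the choice and nothing is read from it. With 1 library per condition and fractions without coverage, none of these differences has a replicate check.

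In uninjected WT hepatocytes the 9 genes had very unequal levels. At 15 weeks Cyp2c29 was highest, at 922 ± 31.9 FPKM (SD, n = 3), followed by Cyp2c50 at 368 ± 14.0. Cyp2c37 (200.1 ± 12.9), Cyp2c54 (191 ± 15.8) and Cyp2c70 (184 ± 23.6) came next, and the ranges of these 3 genes overlapped, so their order is within the spread. Cyp2c40 was at 80.4 ± 2.19. Cyp2c38 (8.21 ± 0.836), Cyp2c55 (4.95 ± 0.314) and Cyp2c39 (4.36 ± 0.0742) were the lowest. FPKM is a level per transcript length, so genes can be set side by side, but reads of near-identical genes can be split between them. Stretches of 50 bases were compared with the protein-coding transcripts of other genes (GENCODE vM1). Of the Cyp2c40 transcript 72.0% also occurred there, mostly in Cyp2c69, as did 30.7% of Cyp2c50, 29.2% of Cyp2c37, 25.0% of Cyp2c54, 11.4% of Cyp2c39 and 7.45% of Cyp2c38. The share was 0.530% for Cyp2c29 and 0 for Cyp2c55 and Cyp2c70. Transcripts of pseudogenes were not compared, so stretches shared with them are not counted. The level of a gene with a large share is uncertain.

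**Figure D1:**
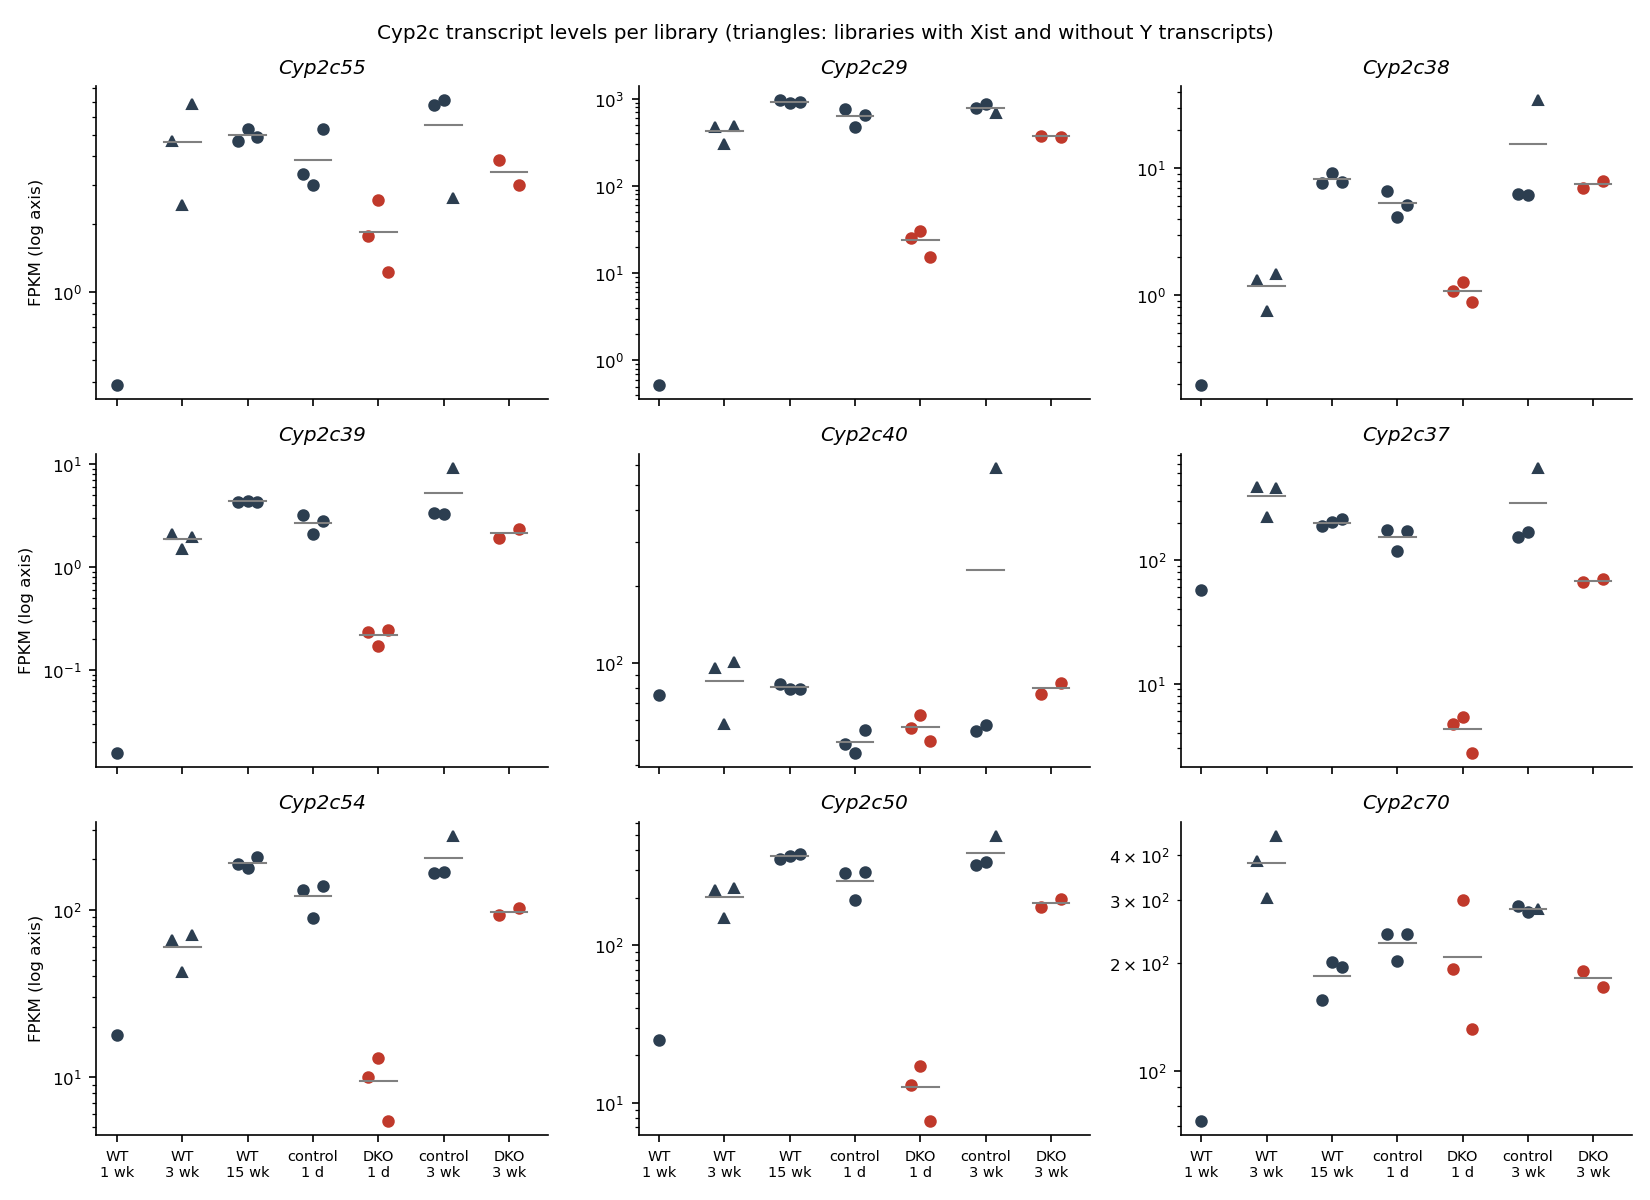
Each panel plots 1 gene, with each library's FPKM on a log axis, the 7 conditions along the x axis, grey lines at the group means and DKO in red. Triangles are libraries with Xist and without Y transcripts. Cyp2c29, Cyp2c37, Cyp2c50 and Cyp2c54 of DKO injected at 1 day lie below all libraries of 3 and 15 weeks from the other conditions, and Cyp2c40 of 1 control injected at 3 weeks stands at 583 FPKM.

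Between 1 week and adulthood nearly all of the genes were higher. Cyp2c29 was at 0.519 FPKM in the 1 week library, at 477, 304 and 481 FPKM at 3 weeks and at 957, 895 and 913 at 15 weeks. Cyp2c50 was at 24.9 FPKM at 1 week, between 148 and 232 at 3 weeks and between 354 and 382 at 15 weeks. Cyp2c40 was at 75.0 FPKM at 1 week and between 79.1 and 82.9 at 15 weeks, so it was similar at both ages. Because 1 library cannot give a test, a gene was counted where every older library was more than 1 log2 unit above it on log2(FPKM + 1). At 15 weeks 8 of 9 were counted, all but Cyp2c40, against 5.74% of the 11166 genes tested. At 3 weeks 7 of 9 were counted, all but Cyp2c38 and Cyp2c40, against 1.78%. The mean log2 differences at 15 weeks ran from 0.10 for Cyp2c40 to 9.25 for Cyp2c29. The marker levels of the 1 week library given above moved with this comparison, and their part in it was not tested. Fewer cells of a type and less RNA per cell cannot be told apart in bulk samples.

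From 3 to 15 weeks the genes went in different directions. Cyp2c38, an arachidonic acid epoxygenase, was at 1.31, 0.755 and 1.48 FPKM at 3 weeks and at 7.66, 9.17 and 7.80 at 15 weeks, without overlap, and rose by 2.09 ± 0.44 on the log2(FPKM + 1) scale (SE; limma, Benjamini-Hochberg adjusted p = 0.00265). Cyp2c54 rose by 1.69 ± 0.29 (adjusted p = 0.000563), Cyp2c29 by 1.16 ± 0.24 (0.00228), Cyp2c39 by 0.91 ± 0.25 (0.0122) and Cyp2c50 by 0.90 ± 0.26 (0.0179). Cyp2c70, the bile acid hydroxylase, went the other way, from 387, 305 and 453.9 FPKM to 157, 201 and 195, and fell by 1.04 ± 0.23 on this scale (adjusted p = 0.00422). Cyp2c37 (difference -0.68, adjusted p = 0.207), Cyp2c40 (-0.03, 0.981) and Cyp2c55 (0.15, 0.749) did not pass. Thus 5 of 9 were higher and 1 lower, where 24% and 9.32% of all genes tested were. Without control library C, which is in neither group but enters the shared estimate of the spread, Cyp2c37 also passed (adjusted p = 0.0414), an alternative added after the data were seen. Scaling the libraries to 1 median shifted all genes by -0.20 in this comparison and moved the share of lower genes among those that passed from 28% to 56.7%, while the counts for the 9 genes stayed at 5 and 1. Over 13 male-biased liver genes 12 rose and 0 fell, and over 13 female-biased genes 6 fell and 0 rose, so age and sex cannot be told apart here. Markers of other cells also moved with age: 5 of 5 tested Kupffer cell and macrophage markers fell (median log2 difference -1.17), as did 6 of 6 endothelial markers (-1.19), with summed levels of 5.14 to 14.4 and 12.2 to 21.0 FPKM at 3 weeks against 1.02 to 1.86 and 2.49 to 5.05 at 15 weeks. Of the 8 hepatocyte markers 0 passed (18132 to 22649 FPKM at 3 weeks, 20372 to 21454 at 15 weeks). The part of these markers in the differences was not tested. The p-values measure the spread between these libraries, whose origin from separate animals is not stated for each column.

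In mice deleted for Tet2 and Tet3 at 1 day, 4 of the most abundant members were reduced to a small fraction of the control level, whereas Cyp2c40 and Cyp2c70 kept levels close to the controls. Cyp2c29 was at 761, 468.7 and 647 FPKM in injected controls and at 25.3, 30.3 and 15.4 in DKO, a mean 26.4-fold lower. Cyp2c37 was at 173, 117 and 170.2 FPKM in controls and at 4.75, 5.43 and 2.75 in DKO, 35.7-fold lower. The lowest control library was far above the highest DKO library for both genes. Cyp2c50 was at 286, 194 and 292 FPKM in controls and at 13.0, 17.1 and 7.67 in DKO, 20.4-fold lower. Cyp2c54 was at 132, 89.3 and 139 FPKM in controls and at 9.99, 13.0 and 5.46 in DKO, 12.7-fold lower. These 4 genes again had no overlap between groups, and DKO library C was lowest for each of them. The share of all genes without overlap is not given, here or for other genes, so nothing is read from the lack of overlap. On the log2(FPKM + 1) scale the fitted differences were -4.69 (95% interval -5.20 to -4.17) for Cyp2c29, -4.88 (-5.73 to -4.03) for Cyp2c37, -4.29 (-4.85 to -3.72) for Cyp2c50 and -3.57 (-4.19 to -2.96) for Cyp2c54. Ordered from the most negative of 11166 genes, these were number 3, 2, 5 and 9.

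The less abundant members also differed. Cyp2c39, a retinoic acid hydroxylase, was at 3.19, 2.11 and 2.80 FPKM in controls and at 0.233, 0.171 and 0.247 in DKO, 12.4-fold lower. Cyp2c38 was at 6.64, 4.11 and 5.11 FPKM in controls and at 1.08, 1.28 and 0.878 in DKO, 4.90-fold lower. Neither gene overlapped between groups, but with such low levels the differences on the log2(FPKM + 1) scale, -1.59 and -1.58, understate the ratios. Cyp2c55, which is better known from the gut, was at 3.33, 2.99 and 5.29 FPKM in controls and at 1.78, 2.56 and 1.23 in DKO (difference -0.77, 95% interval -1.47 to -0.07). Cyp2c40 was at 48.2, 44.4 and 54.5 FPKM in controls and at 55.5, 62.6 and 49.7 in DKO (0.19, -1.17 to 1.54). Cyp2c70 was at 241, 203 and 241 FPKM in controls and at 193, 301 and 131 in DKO (-0.21, -0.71 to 0.29), so the DKO libraries lay on both sides of the controls.

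By limma, 6 of the 9 genes (Cyp2c29, Cyp2c37, Cyp2c38, Cyp2c39, Cyp2c50 and Cyp2c54) had an adjusted p under 0.05 and were lower, beside 15.6% of all genes tested, and 0 were higher, beside 4.33%. Nothing is read from these counts, because the genes may have been chosen by this contrast. The median difference of the 9 was -1.59 on the log2 scale and that of all genes -0.11. Cyp2c38 lost its call in 4 of the 6 fits that left out 1 library (adjusted p from 0.0714 to 0.0796). Scaling the libraries to 1 median shifted all genes by 0.14 and moved the share of lower genes among those that passed from 78.3% to 47.7%, with 6 of the 9 genes still lower. Of the 7 other Cyp2c genes of the table, Cyp2c65 and Cyp2c66 were near 0 and not tested, and Cyp2c53-ps, a pseudogene next to Cyp2c29 (6.76 ± 1.73 FPKM in controls, 0.297 ± 0.0150 in DKO, SD, n = 3), and Cyp2c44, an epoxygenase outside the cluster (173 ± 25.1 and 85.9 ± 7.71), were lower with adjusted p = 1.21e-06 and 0.00212 in limma. Cyp2c67, Cyp2c68 and Cyp2c69, which lie between Cyp2c39 and Cyp2c37, did not pass (differences -0.44, 0.77 and -0.06, adjusted p = 0.395, 0.222 and 0.984). Without control library C Cyp2c68 passed (adjusted p = 0.00708) and was higher. After deletion at 3 weeks Cyp2c53-ps was the only one of the 5 tested that passed (-0.88, adjusted p = 0.0323).

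**Figure D2:**
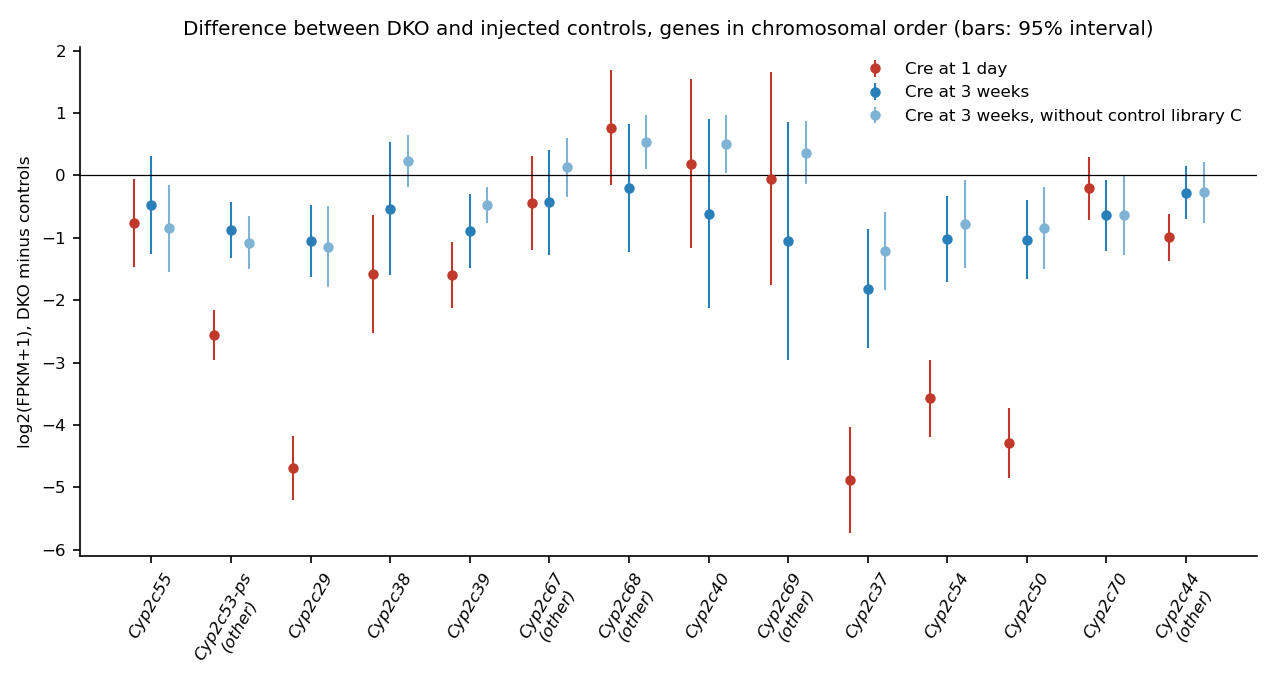
Points give the fitted difference DKO minus injected controls in log2(FPKM + 1), with 95% intervals, for the 9 genes and the 5 other tested Cyp2c genes in chromosomal order. After Cre at 1 day (red) Cyp2c29, Cyp2c37, Cyp2c50 and Cyp2c54 lie between -4.88 and -3.57, and after Cre at 3 weeks (blue) between -1.81 and -1.02, while Cyp2c38 and Cyp2c40 change sign when control library C is left out (light blue).

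When Cre was delivered at 3 weeks, Cyp2c29 and Cyp2c37 fell by smaller factors. All 9 fitted differences were negative, beside a median of -0.07 over all genes, but those of Cyp2c38 and Cyp2c40 were positive without control library C. The share of all genes with a negative difference is not given. Cyp2c29 was at 771, 863 and 689 FPKM in controls and at 372 and 367 in DKO, and fell by 1.06 ± 0.27 on the log2(FPKM + 1) scale (SE; limma adjusted p = 0.0394). Cyp2c37 was at 152, 168 and 553 FPKM in controls and at 66.1 and 70.2 in DKO, and fell by 1.81 ± 0.44 (adjusted p = 0.0352). Neither gene overlapped between groups, and the highest Cyp2c37 value was that of control library C. The share of all genes without overlap is not given for this comparison either. These 2 of 9 genes passed, beside 4.34% of all genes lower, and 0 of 9 were higher, beside 0.905%. At an unadjusted p under 0.05 there were 6 of the 9, all lower, and 2866 of 11166 genes by limma. Cyp2c50 was at 324, 340 and 495 FPKM in controls and at 175 and 196 in DKO (difference -1.03, adjusted p = 0.0575). Cyp2c54 was at 165, 169 and 276 FPKM in controls and at 92.5 and 101.7 in DKO (-1.02, 0.0749). Both genes had DKO values below every control, and neither passed. Cyp2c39 (-0.89, adjusted p = 0.0734), Cyp2c70 (-0.64, 0.149), Cyp2c40 (-0.61, 0.607), Cyp2c38 (-0.53, 0.518) and Cyp2c55 (-0.47, 0.431) did not pass either. The summed endothelial markers were at 11.1 and 22.8 FPKM in DKO and between 3.86 and 10.4 in controls, with Lyve1 higher (0.79, adjusted p = 0.0367) among 6 tested, and the hepatocyte markers at 29076 and 34580 FPKM in DKO and between 22856 and 24196 in controls, with 0 of 8 past the threshold by limma (2 at an unadjusted p under 0.05). Both sums were above every control in DKO. Macrophage markers overlapped (4.80 and 8.34 FPKM in DKO, 1.30 to 7.65 in controls). Their part in the result was not tested.

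Control library C, the library with Xist, decided much of this comparison. Cyp2c40 was at 54.4 and 57.4 FPKM in control libraries A and B and at 583 in library C, against 76.0 and 83.6 in DKO. Cyp2c38 was at 6.29 and 6.18 FPKM in A and B and at 34.4 in C, against 7.05 and 7.95 in DKO. Library C also had the highest Cyp2c37, Cyp2c39, Cyp2c50 and Cyp2c54 of its group and the lowest Cyp2c55 (2.62, against 6.74 and 7.09 FPKM). The 13 female-biased liver genes summed to between 241 and 2165 FPKM over the 3 controls. Without library C only Cyp2c37 passed (difference -1.22, adjusted p = 0.0362), Cyp2c29 was at -1.14 (adjusted p = 0.0551), and the differences of Cyp2c40 and Cyp2c38 turned to 0.51 and 0.23. The Cyp2c37 ratio then went from 4.27-fold to 2.35-fold lower and that of Cyp2c39 from 2.48-fold to 1.57-fold lower. The count of 2 also became 0 with no filter on low values and when the fit held only the 2 conditions compared, and 1 without control library A, 0 without either DKO library and 3 when the libraries were scaled to 1 median, which shifted all genes by 0.15 and moved the share of lower genes among those that passed from 82.8% to 34.4%.

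The difference between both times of deletion was taken as the effect at 1 day minus the effect at 3 weeks. Scaling to 1 median moved the share of negative values among the genes that passed from 56.6% to 64.5% here. The difference was -3.63 (95% interval -4.40 to -2.85) for Cyp2c29, -3.26 (-4.10 to -2.41) for Cyp2c50, -3.07 (-4.34 to -1.79) for Cyp2c37 and -2.56 (-3.48 to -1.63) for Cyp2c54, so each was further below its controls after deletion at 1 day. These 4 of 9 had an adjusted p under 0.05 by limma, beside 3.04% of all genes in this direction and 2.33% in the other. Because this contrast holds the libraries that may have chosen the genes, it is given as a description. Without control library C, 6 of 9 were counted, with Cyp2c38 (-1.81) and Cyp2c39 (-1.12) added. Without DKO library B of the 3 week injection 2 remained counted.

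Controls injected at 1 day were compared with uninjected 15 week mice. Both are labelled WT, and injection cannot be told apart from any other difference between these mice. In this fit 0 of the 9 genes and 0% of all genes in either direction passed at an adjusted p under 0.05, while at an unadjusted p under 0.05 there were 3 of the 9 and 855 of 11166 genes by limma. Cyp2c29 was at -0.59 ± 0.24 (SE), Cyp2c54 at -0.69 ± 0.29 and Cyp2c39 at -0.54 ± 0.25 on the log2 scale (adjusted p = 0.562, 0.580 and 0.633). In all, 8 of the 9 genes were lower in injected controls and Cyp2c70 was higher (0.31 ± 0.23). The median difference was -0.54 for the 9 and -0.0034 for all genes, and the share of all genes that were lower is not given. No count by another tool was made.

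Genes known to act with or beside these enzymes were followed in the comparison of DKO and controls injected at 1 day, by lists chosen with earlier results of these data known. In this comparison 15.6% of all genes tested were lower and 4.33% higher. Of 18 receptors and factors that bind Cyp2c promoters, 5 were lower, among them Nr1i3, Cebpb, Hnf4a and Stat5b, and 0 higher. Nr1i3, which encodes the nuclear receptor CAR, was at 33.0, 30.8 and 31.3 FPKM in controls and at 2.01, 1.74 and 2.04 in DKO, without overlap, and fell by 3.48 ± 0.35 on the log2 scale (limma adjusted p = 1.96e-05). Its difference after deletion at 3 weeks was -1.15 (adjusted p = 0.0886). Cebpb, a leucine zipper factor, fell by 0.89 ± 0.16 (adjusted p = 0.00281). Hnf4a and Stat5b, named after their values were seen, differed by -0.64 and -0.57. Of 4 tested electron partners of P450 enzymes only Cyb5b, a cytochrome b5, was lower (-1.04, adjusted p = 0.000319), and the reductase Por, also named afterwards, was at -0.53 (adjusted p = 0.345).

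Other P450 genes went in both directions. Of 20 xenobiotic P450 genes outside the family, 4 were lower and 3 higher, beside 15.6% and 4.33% of all genes. Cyp2a5, a coumarin hydroxylase, fell by 4.30 ± 0.34 from a mean of 223 FPKM in controls to 10.2 in DKO (limma adjusted p = 2.98e-06), and Cyp2e1, which oxidises ethanol, fell by 3.74 ± 0.35 from 2059 to 162 FPKM (1.04e-05). Of 11 tested genes of arachidonic acid metabolism 1 was lower and 2 were higher, the omega-hydroxylases Cyp4a14 (12.7 to 325 FPKM, log2 difference 4.71 ± 0.86, adjusted p = 0.0027) and Cyp4a10 (38.6 to 234 FPKM, 2.57 ± 0.65, 0.0159). Of 13 genes of bile acid synthesis and transport, 4 were lower and 1 higher. Cyp8b1, the sterol hydroxylase needed for cholic acid, fell by 2.18 ± 0.18 (adjusted p = 3.30e-06) and Cyp7b1, an oxysterol hydroxylase, by 1.88 ± 0.38 (0.0054).

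Position in the lobule was followed by 12 genes of pericentral and 11 of periportal hepatocytes. Of the pericentral genes 11 were lower, beside 15.6% of all genes, with a median log2 difference of -2.38 beside -0.11 for all genes. Oat, an enzyme of ornithine catabolism, fell by 3.91 ± 0.42 (limma adjusted p = 3.62e-05). After deletion at 3 weeks 5 of the 12 were lower, beside 4.34% of all genes, with a median of -1.24 beside -0.07 for all genes. Of the periportal genes 0 were lower and 1 was higher, Cdh1, which encodes E-cadherin (29.8 to 67.4 FPKM, adjusted p = 0.00399). The part of lobule position in the differences of Cyp2c29 and its neighbours was not tested. Of 13 female-biased liver genes 1 was lower, Cyp2a4 (-3.05 ± 0.57, adjusted p = 0.00307), and 1 was higher. Of 13 male-biased genes 5 were lower, beside 15.6% of all genes, with Elovl3, a fatty acid elongase (-3.57 ± 0.96, adjusted p = 0.0202), and Hsd3b5, a steroid dehydrogenase (-2.76 ± 0.78, 0.0253), the most changed.

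Markers of the cells in the preparation were read in the same comparison, where 15.6% of all genes tested were lower and 4.33% higher. At an unadjusted p under 0.05 there were 3850 of 11166 genes by limma. By limma 0 of the 8 hepatocyte markers passed (2 at an unadjusted p under 0.05), as did 0 of 5 tested markers of Kupffer cells and macrophages (2), 0 of 5 of stellate cells and fibroblasts (0), 0 of 3 of cholangiocytes (2) and 0 of 5 sex chromosome transcripts (0). Of 6 endothelial markers Stab2 was lower (-0.58, adjusted p = 0.0390), of 3 leukocyte markers Lyz2 (-1.01, 0.0310) and of 6 erythroid markers Alas2, the first enzyme of haem synthesis in red cell precursors (-2.11, 0.0134). The summed erythroid markers were between 53.1 and 70.6 FPKM in controls and between 12.4 and 15.6 in DKO, and those of macrophages between 4.39 and 7.54 in controls and 1.40 and 3.65 in DKO. Both sums were lower in every DKO library than in every control. Those of endothelial cells overlapped, at 5.99 to 9.26 in controls and 3.57 to 6.13 in DKO. Their part in the results was not tested. The 5 genes outside the family whose log2(FPKM + 1) over the 18 libraries was most like the mean profile of the 9 were Cyp2a5 (Pearson r = 0.944), Ank (0.929), Cyp2a4 (0.921), Rdh16 (0.919) and Dleu2 (0.913). The libraries share their conditions, so these correlations describe the profiles only. Among the 9 genes, r with that mean profile ran from 0.482 for Cyp2c40 and 0.567 for Cyp2c70 to 0.960 for Cyp2c39.

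Methylation was then counted over each gene and 1 kb on either side. Most tiles were highly methylated at all stages, with means over the 1018 tiles of 82.8% in newborn WT, 78.8% in adult WT and 81.7% in adult DKO. A small set differed: 55 tiles (5.40%) were lost from newborn to adult, beside 1.63% of all 8049849 tiles with values, and 49 of the 55 (89.1%) were kept in DKO, beside 70.6% of all lost tiles. The mean over the 55 was 77.7% in newborn, 24.6% in adult WT and 76.2% in DKO. The smallest fall counted was 35.4 points and the largest not counted 34.3. Of the 55, 7 lay before a start, 11 overlapped an exon and 37 an intron only, with 15 within 1 kb and 36 within 5 kb of a start.

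The genes differed in how many tiles were lost. Cyp2c70 had the most, 18 of 109 with 17 kept in DKO, and the mean over the gene was 82.3% in newborn, 66.5% in adult WT and 80.6% in DKO. Cyp2c29 had 11 of 107 (8 kept), Cyp2c50 8 of 80 (7 kept) and Cyp2c54 8 of 99 (8 kept). Cyp2c40 had 4 of 118, all kept. Cyp2c37 and Cyp2c39 had 2 each, all kept, although Cyp2c37 had one of the largest differences in transcript level. Cyp2c38 had 1 of 196, kept, and Cyp2c55 had 1 of 110, which was not kept (93.8%, 57.1% and 80.4%). Among the tiles with the largest fall in each gene were that of Cyp2c70 at 40259001 to 40259200, intronic, with 90.0%, 13.6% and 78.0%, that of Cyp2c50 at 40165601 to 40165800, overlapping an exon, with 81.0%, 3.39% and 85.5%, and that of Cyp2c39 at 39627201 to 39627400, intronic and 41990 bp from the start, with 92.3%, 16.7% and 72.0%. Cyp2c54 had its largest fall at 40145801 to 40146000 (91.9%, 39.7% and 79.7%), Cyp2c40 at 39887001 to 39887200 (64.9%, 7.41% and 73.9%) and Cyp2c38 at 39535401 to 39535600 (100%, 54.5% and 90.5%). Of the other genes, Cyp2c67 lost 7 of 116 tiles and Cyp2c44 15 of 113, and Cyp2c53-ps lost 0 of 124 although its level was lower in DKO.

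**Figure D3:**
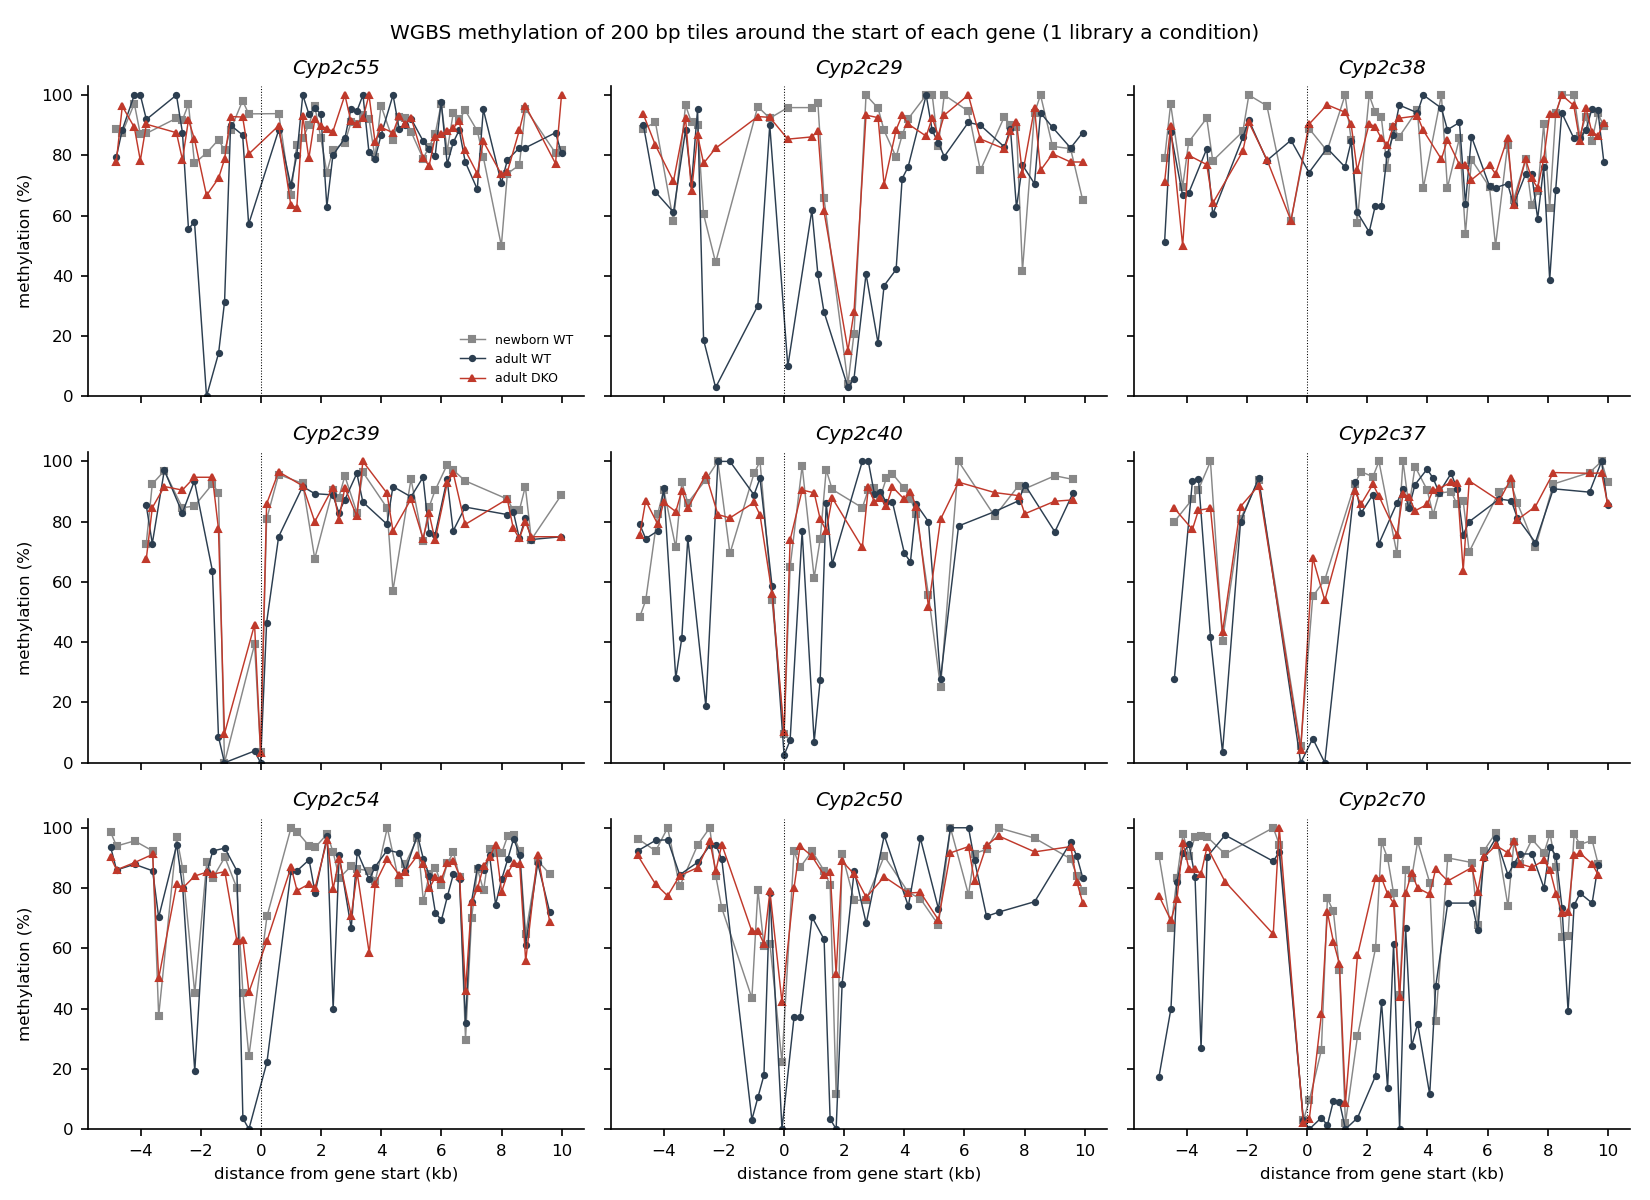
Each panel plots the WGBS methylation level (%) of 200 bp tiles against the distance from the start of 1 gene (kb, positive into the gene), for newborn WT (grey squares), adult WT (dark circles) and adult DKO (red triangles), 1 library each. Past the start of Cyp2c70 and on both sides of that of Cyp2c29 the adult WT line falls below both other lines in most tiles. At Cyp2c50 this holds for most tiles past the start but not for most of those before it. At -4267 bp, for instance, the Cyp2c50 values were 92.3% in newborn, 95.8% in adult WT and 81.3% in DKO. The newborn and DKO lines differ in some tiles, as at -2273 bp from the start of Cyp2c29 (44.4% and 82.4%).

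RRBS, which reads tiles of 100 bp at restriction sites, did not reach these positions: 0 of the 55 lost tiles were overlapped by an RRBS tile with a value. The RRBS tiles of the genes that had a value in every animal compared were highly methylated in all groups. For DKO injected at 1 day the means over 25 tiles were 94.2% and 91.6%, against 89.2%, 90.1% and 91.8% in controls, 2.55 points higher in DKO (exact permutation test over animals, two-sided, p = 0.4). For injection at 3 weeks the DKO means over 23 tiles were 91.1% and 90.7%, against 93.6%, 89.3% and 91.9% in controls (-0.70 points, exact p = 0.8). WT mice of 3 weeks were at 90.3% and 89.3% and controls injected at 1 day at 87.7%, 89.1% and 90.9% over 22 tiles (0.54 points, exact p = 0.8). InsR KO mice, in which the insulin receptor was deleted in hepatocytes, were at 89.6% and 93.02%, and the same controls at 88.9%, 87.0% and 90.3% over 18 tiles (2.57 points, exact p = 0.4). With 2 against 3 animals the smallest possible p is 0.2, so none of the 4 comparisons could pass, and the last 2 share their controls with the first. Adjusted over the 4 by Benjamini-Hochberg, each p was 0.8.

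H3K27ac, a mark of active enhancers and promoters, had fewer summed tags in DKO peaks over Cyp2c29, Cyp2c37, Cyp2c38, Cyp2c50 and Cyp2c54, and not over the other members. In normalised tags (scaled to 10000000 per library) within peaks over the gene and 1 kb on either side, Cyp2c50 went from 153 in WT to 5.81 in DKO, Cyp2c29 from 192 to 38.9 and Cyp2c54 from 55.3 to 15.6. Cyp2c38 went from 27 to 13.1. The sums also depend on the length of the peaks called, 5432 bp in WT and 501 bp in DKO at Cyp2c50. Per kb covered, WT and DKO were at 28.2 and 11.6 for Cyp2c50 and at 40.2 and 20.9 for Cyp2c29. Cyp2c54 was at 21.2 and 20.3 per kb, Cyp2c38 at 26.5 and 16.1 and Cyp2c39 at 23.4 and 11.4. Cyp2c55 was at 16.2 and 17.9 per kb and Cyp2c70 at 23.6 and 30.7. Cyp2c37 had 1 peak of 9.32 in WT, below the median peak of that library (17.0), and none in DKO. Cyp2c70 was at 169.8 and 175, with little difference. Cyp2c39 (11.7 and 27.6) and Cyp2c55 (12.3 and 35.6) were higher in DKO, and Cyp2c40 had no peak in either library. Among the other Cyp2c genes, Cyp2c67 went from 368 to 53.8 and Cyp2c44 from 227 to 130. Cyp2c53-ps had 13.7 in WT and no peak in DKO, and Cyp2c68 no peak in WT and 44.3 in DKO. The transcript difference of Cyp2c67 after deletion at 1 day did not pass (-0.44, limma adjusted p = 0.395). Over the 9 genes the sum was 630 in WT and 312 in DKO, over 22796 and 14053 bp of peaks or 27.7 and 22.2 tags per kb covered. Over the whole genome the DKO library had more H3K27ac peaks (46782, against 43085) and a larger share of its tags in peaks (34.2%, against 24.7%). Each mark has 1 library per condition, so no difference was tested.

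H3K4me1, a mark of poised and active enhancers, summed to nearly the same level, 1117 normalised tags in WT and 1095 in DKO, over 54017 and 45695 bp. The genes went in different directions. Cyp2c54 went from 155 to 40.9, Cyp2c50 from 139 to 91.3 and Cyp2c70 from 324 to 237, whereas Cyp2c29 went from 173 to 239 and Cyp2c39 from 75.8 to 187. Cyp2c37 was at 107.5 in WT and 105.2 in DKO. The peaks were fewer in DKO, 16 against 33, as at Cyp2c29, where 2 peaks covered 9082 bp in DKO and 8 covered 9005 bp in WT. Of the 55 lost tiles, 32 lay under an H3K4me1 peak and 26 under an H3K27ac peak of WT hepatocytes, against 104 and 38 of the other 963 tiles. In DKO these numbers were 33 and 11 of the 55, against 60 and 26 of the 963.

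**Figure D4:**
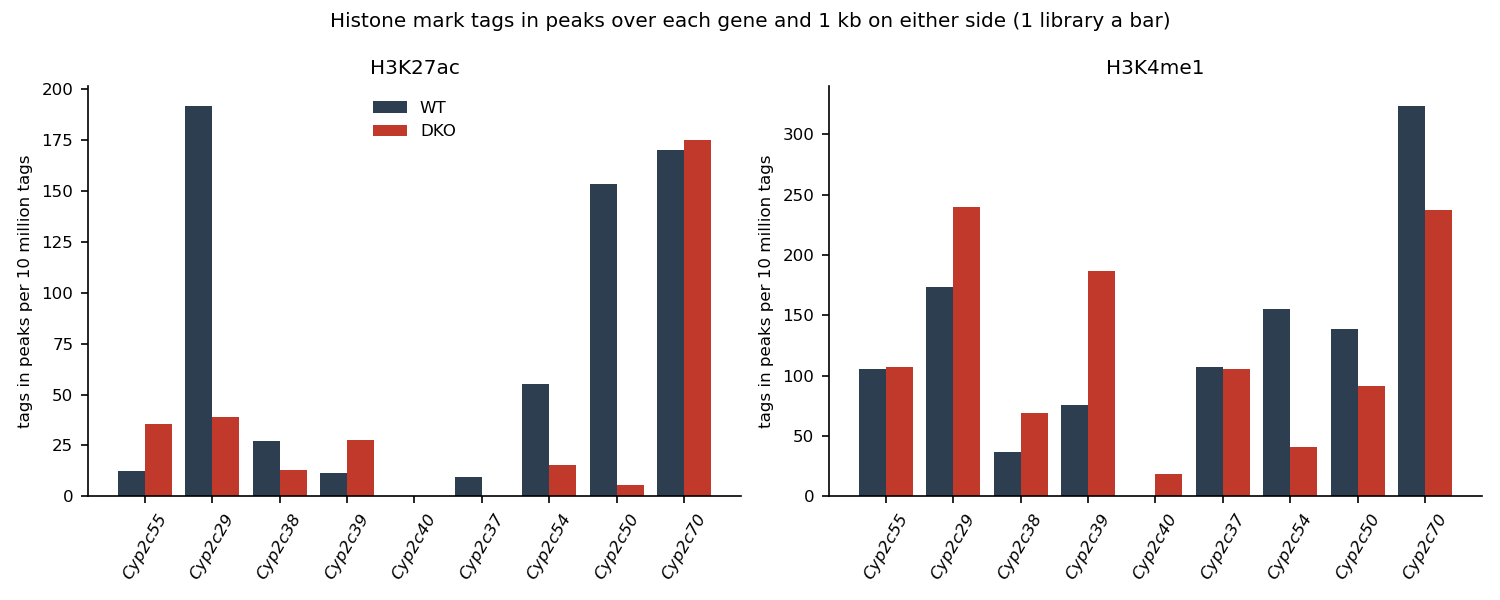
Bars give the summed normalised tags in peaks over each gene and 1 kb on either side, for H3K27ac (left) and H3K4me1 (right) in 1 WT (dark) and 1 DKO (red) library. H3K27ac was 153 in WT and 5.81 in DKO at Cyp2c50, and 169.8 and 175 at Cyp2c70. The sums also depend on peak length, at Cyp2c50 5432 bp in WT and 501 bp in DKO.

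HNF6 (Onecut1) is a homeodomain factor of hepatocytes, and its peaks were called against input in each library. At the 9 genes there were 5 and 8 peaks in WT and 5 and 22 in DKO. DKO replicate 2 stood apart, with 34665 peaks genome-wide against 4387 to 9355 in the other libraries. The mean difference was 7.0 peaks with it (exact permutation test, p = 1, smallest possible p = 0.333) and -1.5 without it. Peaks in all 4 libraries occurred at 4 places. The peak 748 bp past the start of Cyp2c70, over the lost tile printed above, had 22.1 and 34.3 normalised tags in WT and 13.8 and 20.1 in DKO. The peak 88 bp before the start of Cyp2c54 had 8.96 and 16.5 in WT and 17.9 and 55.1 in DKO, that 1042 bp before Cyp2c50 had 4.48 and 9.80 and then 16.8 and 27.5, and that 41839 bp into Cyp2c39 had 5.12 and 8.57 and then 16.8 and 42.4. In tags per peak, both WT values were above both DKO values at Cyp2c70, and both DKO values above both WT values at the other 3 places. Median peak width was 185 and 159 bp in WT and 201 and 249 bp in DKO, and tags per peak also depend on it. Per kb of peak, Cyp2c54 was at 103.8 in WT replicate 2 and 89.1 in DKO replicate 1, so its order did not hold. Cyp2c70 was at 119.5 and 215.7 per kb in WT and 68.7 and 80.7 in DKO. Values per kb are not given for the places at Cyp2c50 and Cyp2c39. Genome-wide the DKO libraries also had a larger share of tags in peaks (0.946% and 5.58%) than the WT libraries (0.333% and 1.05%), and the part of this in the differences was not tested. With 2 against 2 libraries the smallest possible p is 0.333. Of the 55 lost tiles 5 and 6 lay under a WT HNF6 peak, against 1 and 3 of the other 963.

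The letters ATTGAT or ATCGAT, the core that HNF6 binds, were searched on both strands, where the palindrome ATCGAT matches itself and overlapping matches count separately. They occurred in 14 of the 55 lost tiles (25.5%) and in 9.69% of all 211739 WGBS tiles of chromosome 19, with or without values. The Cyp2c70 tile printed above held 4 matches within its run of repeats and the other 6 tiles printed held none. The letters CAAAGTCCA, a site of HNF4A, occurred in 0 of the 55 and in 0.278% of the tiles of the chromosome. In RefSeq promoters (GRCm38.p6, 250 bases before to 50 after the start), found for 8 of the 9 genes and missing for Cyp2c54, the HNF6 letters occurred in 3 (Cyp2c37, Cyp2c40 and Cyp2c50) and in 8.40% of all 32851 promoters, and the HNF4A letters in 2 (Cyp2c40 and Cyp2c70) and in 0.475%. These matches describe the letters only.

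**Figure D5:**
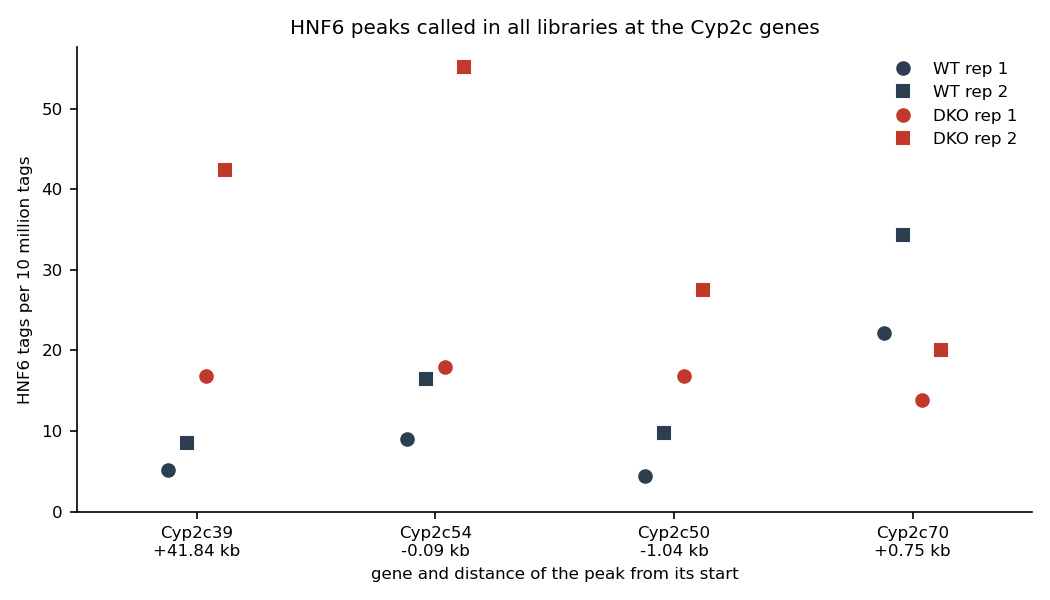
Points give the HNF6 normalised tags of the peaks called in all 4 libraries at the 9 genes, with the distance of the peak from the gene's start under each name. At Cyp2c70 the WT libraries (22.1 and 34.3) lie above the DKO libraries (13.8 and 20.1), and at the other 3 places DKO lies above WT. Tags are per peak, and peaks were wider in DKO (median 201 and 249 bp) than in WT (185 and 159 bp).

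ATAC-Seq, called without input, gave few peaks at these genes: 3 and 0 in WT and 2 and 6 in DKO (mean difference 2.5, exact permutation test, p = 0.667, smallest possible p = 0.333). The start of Cyp2c39 had a peak in WT replicate 1 (2.23 normalised tags) and in both DKO libraries (3.58 and 3.82). Upstream of the Cyp2c70 start both DKO libraries had a peak (2.78 and 4.38) and neither WT library did. The peak over the 2 Cyp2c40 tiles was present in WT replicate 1 (2.84) and in no other library. The peaks at these genes stood below the median peak of each library (5.72 to 6.61). The 5hmC library of 20 day hepatocytes had 51 peaks at the 9 genes, 11 each at Cyp2c38 and Cyp2c70, 7 each at Cyp2c29 and Cyp2c55, and between 2 and 4 at the others. The 5hmC normalised tags were highest at Cyp2c70 (145). Of the 55 lost tiles 11 (20.0%) lay under a 5hmC peak, against 112 of the other 963 (11.6%).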

How the data were processed

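The authors deposited RNA-Seq values as FPKM, made with cutadapt 1.15 for trimming, TopHat2 and Cufflinks from single-end reads. WGBS and RRBS values were deposited as a methylated fraction of CpG readings per tile (200 and 100 bp, mm9, Trim Galore 0.3.3 and BSMAP 2.74), with a minimum of 10 readings per RRBS tile according to the study's methods and no coverage in the files. For ChIP-Seq, ATAC-Seq and 5hMeDIP-Seq the authors deposited HOMER peaks of each library (Bowtie2 2.2.4, duplicates removed), with signal as tags scaled to 10000000 per library and a score per peak. ATAC-Seq peaks were called without input. The depth of the expression and methylation values is therefore unknown. Peak libraries had from about 13400000 (HNF6) to about 90200000 (ATAC-Seq) tags.

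The 11166 genes whose mean reached 1 FPKM under some condition were tested on log2(FPKM + 1) with limma 3.58.1 in R 4.3.3, in 1 fit over 18 libraries and 7 conditions with a trended prior, and p-values were adjusted by Benjamini-Hochberg over all genes tested. A fold change on this scale understates the change of low genes. RRBS animals and peak counts were compared with exact permutation, two-sided (scipy 1.17.1, Python 3.11.15). A peak belonged to a gene where it overlapped the gene or 1 kb on either side. Whole-table fits were tested on simulated data with 200 changed genes (log2 change of 2), of which 191 were recovered for the deletion at 1 day, 197 for the deletion at 3 weeks, 192 for age, 179 for the difference between deletions and 195 for injection. Unchanged genes called falsely numbered 8, 18, 6, 13 and 3 in the same order.

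The genes and the other lists were chosen with earlier results of these data known. Named were the 9 genes, the other Cyp2c genes, the 2 most changed genes of each list that passed in DKO injected at 1 day, the 5 genes of most similar profile and, per gene, the tile with the largest fall. Names outside this rule are marked in the text. Some genes that the rule names are not reported here. In all, 49 columns of values (6 of FPKM, 43 of RRBS) did not match 1 group of the labels and were not used. Alternatives were another pseudocount, no filter, scaling to 1 median, no trend, only the conditions compared, each library left out, other limits and regions for tiles, and the upper part of peaks by score. Fits without control library C in comparisons it is not part of, and differences within replicate numbers for ATAC-Seq and HNF6, were added after the data were seen.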

Additional observations from a re-analysis of the deposited data

Results flagged for a closer look

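For Cyp2c29, Cyp2c37, Cyp2c50 and Cyp2c54 the fitted effect of deletion at 1 day was more negative than that at 3 weeks, which is what brings them here. On the log2(FPKM + 1) scale the effect at 1 day minus the effect at 3 weeks was -3.63 for Cyp2c29, -3.07 for Cyp2c37, -3.26 for Cyp2c50 and -2.56 for Cyp2c54. The contrast uses the libraries injected at 1 day, by which the genes may have been chosen, so these values are a description and no support is drawn from them.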

How the results depend on the processing

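Of 558 alternative values for single genes, 522 kept their direction and side of the threshold, 21 no longer passed, 6 passed in addition and 9 turned their sign, of which 0 passed in either fit. The cause of these changes was not tested. For deletion at 3 weeks the count of 2 genes was 0 with no filter and with only the conditions compared, and between 0 and 2 with 1 library left out. The counts ranged from 5 to 6 for deletion at 1 day, 5 to 6 for age, 2 to 6 for the difference between deletions (2 without DKO library B, 6 without control library C, both injected at 3 weeks) and stayed at 0 for injection. For single genes, leaving out 1 library gave -0.52 to 0.081 for Cyp2c70 at 1 day, -0.92 to 0.23 for Cyp2c38 and -1.19 to 0.51 for Cyp2c40 at 3 weeks, -0.29 to 0.11 for Cyp2c40 and -0.16 to 0.43 for Cyp2c55 with age (-0.044 with scaling), and -0.32 to 1.38 for Cyp2c40 and -0.50 to 0.081 for Cyp2c55 in the difference between deletions. With a limit of 50 points 28 tiles were lost and 21 kept, and with 10 kb around each gene 74 were kept. The RRBS difference for deletion at 3 weeks was 0.16 with 10 kb, 0.39 as a median, and -1.85 to 0.20 with 1 animal left out. That for age was -1.76 as a median, -1.35 with tiles valued in 1 animal per condition and -0.24 to 1.38 with 1 animal left out (-0.18 without WT 3 weeks animal B). Among the upper 50% of peaks by score the ATAC-Seq difference was 0, the H3K4me1 difference 354 tags and the 5hmC count 22. With 10 kb the H3K4me1 difference was 3.49. The HNF6 difference was -1.5 without DKO replicate 2 and 15.5 without DKO replicate 1. With a replicate block the ATAC-Seq and HNF6 differences were 2.5 and 7.0, and 2 pairs cannot give a p below 0.5. No paired analysis was possible for expression and RRBS because the columns carry no replicate number of the labels.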

Other observations

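RRBS columns of other tissues also covered some of these genes and entered no comparison. Over 9 tiles at Cyp2c38 the methylation level was 87.4% in the single WT fat column, and over 7 tiles it was 95.4% in the single WT neutrophil column. At Cyp2c70 the means over 2 tiles were 85.1% in fat and 95.8% in neutrophils. At Cyp2c29 they were 91.5% and 97.5%. At Cyp2c37 no RRBS tile had a value in any column used.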
